A study of Mus musculus with 19 samples.

Results

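The 7 genes Iqsec1, Dip2c, Sgpl1, Cux1, Eaf2, Pigp and Ttc3 carried some of the highest STRA8 ChIP-seq scores at promoters of mouse germ cells entering meiosis. They were chosen by that score: each had a peak summit within 1 kb of a transcript start site (TSS) in all 3 FLAG/FLAG ChIP-seq libraries, and the lowest of its 3 scores ranked between 1 and 9 among 1545 genes with such a summit in all 3 libraries, out of 21862 protein-coding genes. The scores are therefore a description of the choice. The ranking by score did not use the RNA measurements, but the 7 genes were chosen with earlier results of these data known. The 7 were picked as strongly bound genes without a known part in meiosis. This did not hold strictly for Eaf2, which is in an earlier published list of meiotic prophase genes that the study uses. Male mice on a C57BL/6 background received WIN18,446, which blocks retinoic acid synthesis, from postnatal day 2 to 8 and retinoic acid on day 9, and testes were collected about 6.75 days later. For ChIP-seq, unsorted synchronized testes of Stra8 FLAG/FLAG mice (3 libraries) and of wild-type mice (3 libraries) were precipitated with the FLAG M2 antibody. For RNA-seq, preleptotene cells were sorted from 3 Stra8-deficient (Stra8 knock-out) and 4 Stra8 heterozygous samples, of which 2 were low-STRA8 (early preleptotene) and 2 high-STRA8 (mid or late preleptotene) by STRA8 staining of the testis. All RNA mice also carried Ddx4-Cre and Rosa26-tdTomato, which label the germ line. The FLAG tag marks only the longer STRA8 isoform, spermatogonia in the unsorted testes also express STRA8, and the third FLAG/FLAG and wild-type libraries were made with another kit than the rest.

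STRA8 is a protein that germ cells make in response to retinoic acid and need to enter meiosis. Preleptotene cells, which undergo the last DNA replication before meiotic prophase, are the germ cells in which it is most abundant, and its binding to DNA was mapped here through an epitope tag. The 7 genes work in unlike processes. Iqsec1 encodes an exchange factor that loads the membrane-traffic GTPase ARF6 with GTP. Sgpl1 encodes the lyase of the endoplasmic reticulum that irreversibly cleaves sphingosine-1-phosphate, and Pigp a subunit of the enzyme that starts the synthesis of glycosylphosphatidylinositol (GPI) membrane anchors. Cux1 encodes a CUT homeodomain transcription factor, and Eaf2 a partner of the ELL elongation factors of RNA polymerase II. Ttc3 encodes an E3 ubiquitin ligase that acts on the kinase AKT, and Dip2c a member of the DIP2 family of adenylate-forming domain proteins.

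The motif CNCCTCAG came from the study's own analysis of STRA8 peaks, called on the pooled reads of the same FLAG/FLAG samples. The sequence at the 6 summit sites of the 7 genes is given here to show how differently they hold its 8 bases. Each sequence is from the RefSeq genome GRCm38.p6 (mm10), 5′ to 3′ on the strand of the gene. Capitals mark matches to CNCCTCAG or, for a match on the other strand, to CTGAGGNG. The first is the 100 bases around the Iqsec1 summit, on the minus strand at chr6:90988995-90989094, shown for its 4 spaced matches.
Iqsec1: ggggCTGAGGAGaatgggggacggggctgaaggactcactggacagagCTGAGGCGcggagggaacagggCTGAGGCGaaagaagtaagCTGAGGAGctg
The second is 30 bases under the Dip2c summit, on the plus strand at chr13:9276723-9276752, shown because 3 matches follow each other there.
Dip2c: CTGAGGAGgcgCTGAGGAGacgCTGAGGAG
The third spans the summits of Sgpl1, on the minus strand at chr10:61146973-61147272, and shows the repeated tract in which its 5 matches lie.
Sgpl1: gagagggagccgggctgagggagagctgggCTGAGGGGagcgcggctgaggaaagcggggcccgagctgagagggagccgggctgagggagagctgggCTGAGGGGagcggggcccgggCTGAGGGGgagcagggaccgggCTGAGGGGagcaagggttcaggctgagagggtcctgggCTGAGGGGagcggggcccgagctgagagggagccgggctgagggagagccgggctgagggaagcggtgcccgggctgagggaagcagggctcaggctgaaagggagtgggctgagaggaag
The fourth, at the first bases of Cux1 on the minus strand at chr5:136567416-136567445, holds a single match.
Cux1: ggactccatggCTGAGGCGgtggcggcggc
The fifth, on the minus strand of Eaf2 at chr16:36828500-36828599, is shown because no match was found in it although the score was among the highest.
Eaf2: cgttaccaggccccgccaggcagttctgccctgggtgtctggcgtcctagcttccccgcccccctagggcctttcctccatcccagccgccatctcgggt
The sixth is beside the summit between Pigp and Ttc3, on the minus strand at chr16:94370685-94370714, with the match nearest to the summit.
Pigp: CCCCTCAGctcggtggggtgggtggtgaga

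The score of a summit is -log10 of the peak caller's p, so it grows with both enrichment and depth. The 3 FLAG/FLAG libraries held 5687, 3299 and 2035 summits, of which 78.8%, 87.6% and 82.5% lay within 1 kb of a TSS, and the 3 wild-type libraries held 798, 37 and 164. Over the 1545 genes the median of the lowest score was 13.8. The Iqsec1 summit scored 336, 288 and 233 in FLAG/FLAG libraries 1, 2 and 3, which ranked it 2, 1 and 1 among all genes. Dip2c scored 372, 244 and 215, the highest score of any promoter in library 1. Sgpl1 scored 250.0, 272 and 164, and Cux1 scored 259, 154 and 224. Dip2c thus led in library 1 and Iqsec1 in libraries 2 and 3, with Sgpl1 next in library 2 and Cux1 next in library 3. The Eaf2 summit scored 158, 157 and 117, with ranks of 25, 8 and 14 in the single libraries. Pigp and Ttc3 share a summit, which scored 227, 111 and 132. By the lowest of the 3 scores, Iqsec1 ranked 1, Dip2c 2, Sgpl1 4, Cux1 5, Eaf2 7, and Pigp and Ttc3 both 9. Between them stood Pparg (rank 3), Tcf12 (rank 6, the one of these genes with a summit in a wild-type library) and Iqcb1, which shares the Eaf2 summit. The next genes were Myo5a at rank 11, with scores of 109, 110 and 109, and Sirt1 at rank 12, so that the lowest scores just inside and just outside the choice were 111 and 109. None of the 7 genes had a wild-type summit within 1 kb of a TSS. Without FLAG/FLAG library 3 the lowest ranked member was at 17, and without library 2 at 13.

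**Figure D1:**
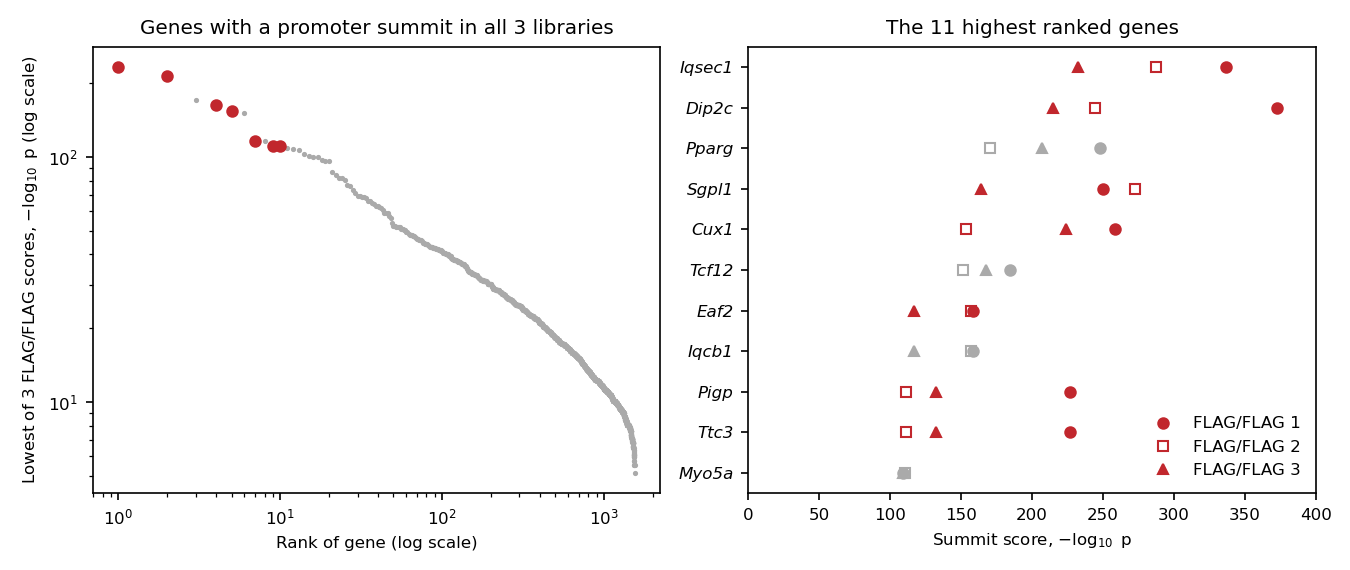
STRA8 ChIP-seq scores (-log10 p, log axis in the rank plot) of genes with a promoter summit in all 3 FLAG/FLAG libraries: the lowest of the 3 scores against its rank, and the 3 scores of the highest ranked genes, 1 point per library (red, the 7 chosen genes; grey, others). The 7 chosen genes have lowest scores between 111 and 233, above a median of 13.8 over the 1545 genes.

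The summits lay at different places relative to the genes (positions on mm10, transcripts from GENCODE M21). Iqsec1 is on the minus strand at chr6:90656088-90988685, and its 3 summits, at 90989034, 90989047 and 90989045, were 349 to 362 bp upstream of the most distal TSS and outside the gene. Dip2c is on the plus strand at chr13:9276528-9668928, and its summits, at 9276726, 9276734 and 9276750, lay in the UTR exon of the transcript that starts first and 163 to 187 bp before the next TSS. The summits of Sgpl1 (minus strand, chr10:61098642-61147674) were inside an intron, 397 bp past a TSS in libraries 1 and 3 and 644 bp past it in library 2. That spread of 247 bp was the widest of the 7 genes, against 13 to 59 bp for the others. The Cux1 summits lay from 4 bp before to 22 bp after the TSS at the end of the gene (minus strand, chr5:136248135-136567445). Cux1 was the only one of the 7 genes with FLAG/FLAG summits beyond 1 kb of its start sites, 4 of them with scores from 6.26 to 12.4, and 1 wild-type library held an intronic summit of score 7.16.

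Both remaining sites serve a pair of divergent genes on chromosome 16. The Eaf2 summits (minus strand, chr16:36792884-36874826), at 36828550, 36828595 and 36828536, were 275 to 334 bp upstream of its internal TSS at 36828261, in an intron of the transcript that starts farther away. The same summits were 128 to 187 bp inside Iqcb1, which starts at 36828408 on the plus strand and encodes a protein of the primary cilium. The distal Eaf2 start at 36874826 had summits of its own in libraries 1 and 2, with scores of 14.5 and 13.9, which also lay within 1 kb of a start of Golgb1. The other site is where Pigp (minus strand, chr16:94358763-94371842) and Ttc3 (plus strand, chr16:94370618-94469343) overlap at their 5′ ends. Its summits, at 94370667, 94370684 and 94370646, fell in UTR exons of both genes, 10 to 48 bp past a Pigp TSS and 28 to 66 bp past a Ttc3 TSS. Second summits nearby scored 17.8 in library 2 and 10.9 in library 3. The summit files do not show which gene of a pair a summit belongs to.

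**Figure D2:**
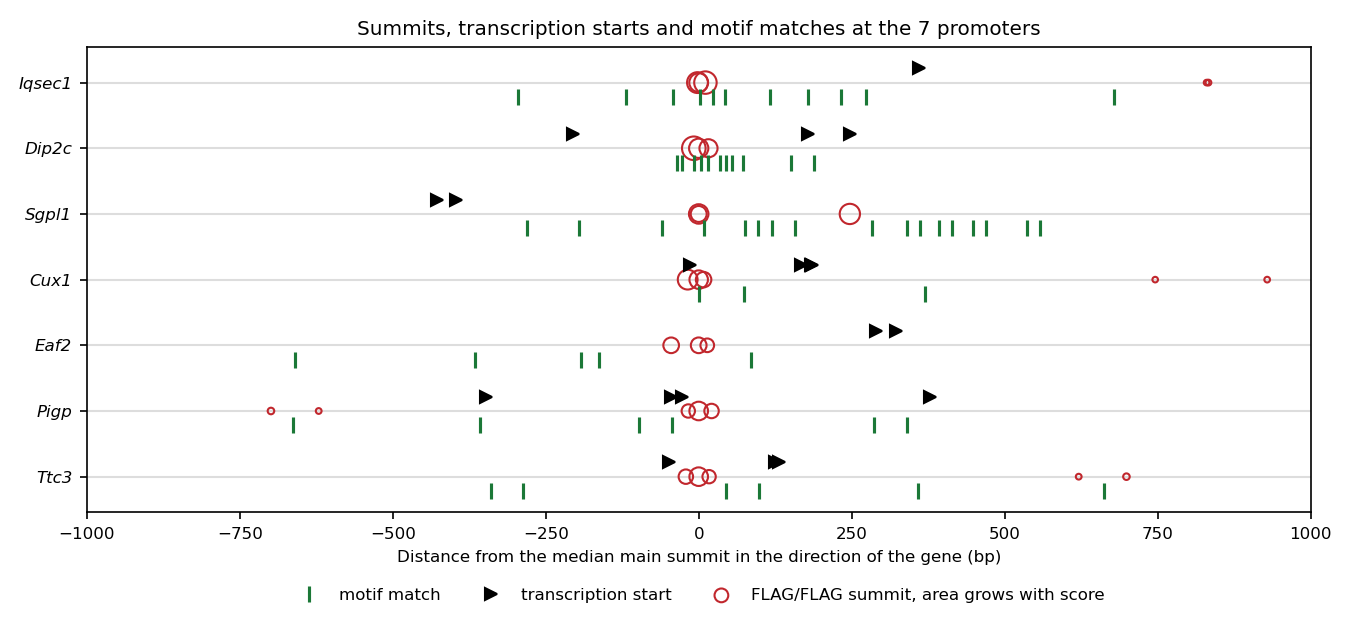
STRA8 summits of the 3 FLAG/FLAG libraries (circles, area growing with the score), start sites and matches to CNCCTCAG on either strand, in bp from the median main summit and in the direction of the gene. Dip2c and Iqsec1 have their matches packed around the summit, Sgpl1 has 17 in the window of 2 kb, and Eaf2 has 5 there but none within 50 bp of the median summit.

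Counted in 100 bp around each summit, with matches on both strands, 14 of the 18 main summits (77.8%, SD over libraries 9.62, n = 3) held CNCCTCAG. Over all 9049 FLAG/FLAG summits at promoters the share was 12.6%. Since the study derived the motif from pooled reads of the same FLAG/FLAG samples, the contrast is a description. Dip2c held 6, 7 and 7 matches in libraries 1, 2 and 3 and Iqsec1 held 3, 4 and 4. Only 9 of the 9049 summits (0.1%) held 4 or more, summits of Dip2c and Iqsec1 among them. No promoter summit held more than 7, the count at Dip2c. Of the 1972 FLAG/FLAG summits beyond 1 kb of a TSS, 0.81% held 4 or more. Sgpl1 and Cux1 held 1 match in every library. The summit of Pigp and Ttc3 held 1, 1 and 0 matches, and that of Eaf2 held none in any library. Among the 14 matches within 50 bp of the median summits, CTCCTCAG made up 9, CGCCTCAG 3 and CCCCTCAG 2. None overlapped another, and 13 lay on the strand opposite to the gene. All 7 matches at Dip2c were CTCCTCAG. The high score of Eaf2 thus came without the letters of the motif in this window, which says nothing more than that these letters were not there.

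In the 2 kb around a TSS, Sgpl1 held 17 matches, the most of all 21862 protein-coding genes. Dip2c held 12, Iqsec1 11, Pigp and Ttc3 6 in their shared stretch, Eaf2 5 and Cux1 3. At least 1 match was found in 43.4% of all genes and in 66.8% of the 1504 genes with a summit in all 3 FLAG/FLAG and no wild-type library. Counts of 5 or more were found in 36 genes (0.16%) overall and in 26 of the 1504 (1.73%). Among them are 6 of the 7 genes, with Pigp and Ttc3 counted over the same matches. This too is a description, since the motif came from the same FLAG/FLAG samples. The 300 bp around the summits were not uniform in other respects. Their GC content ran from 61.7% at Iqsec1 to 79.0% at Cux1, against a median of 70.3% over all promoter summits. CpG dinucleotides numbered 11 to 16 at Sgpl1 and 13 to 14 at Iqsec1 but 47 to 48 at Cux1, against a median of 33 over all promoter summits. Whether the short reads map to a single place in the repeats of Dip2c and Sgpl1 was not tested.

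The RNA libraries held 25049625 to 30015072 estimated counts, and replicates differed by more than counting noise. Stra8 itself measured 15.3 ± 9.12 TPM (the level per transcript length and library size, as the authors give it) in the Stra8-deficient libraries (SD, n = 3), 276 ± 56.2 in the low-STRA8 (n = 2) and 1173 ± 105 in the high-STRA8 libraries (n = 2), in the order of the labels. All 6 germ cell markers were detected, and of 12 markers of pachytene and later cells 2 exceeded 1 TPM in any library. The sum of 11 macrophage and blood markers, of which Ptprc alone was at 0 in any library, was 55.4 to 57.2 TPM in the low-STRA8, 13.8 to 39.3 in the Stra8-deficient and 3.92 to 11.5 in the high-STRA8 libraries, and that of 14 Sertoli cell markers, none at 0 in any library, was 307 to 937, 824 to 1042 and 986 to 1041. The 6 germ cell markers summed to 3486 to 3785, 4232 to 5859 and 6769 to 7992 TPM in the same order. They include Dazl and Sycp3, which the paper reports as upregulated by STRA8. Of the 6, 2 were called higher and 1 lower in high-STRA8 against Stra8-deficient cells, beside 18.8% and 18.2% of all genes tested. The sum of 14 markers of undifferentiated spermatogonia was 126 to 132, 165 to 187 and 125 to 145 TPM in that order. The part of these cells in the differences below was not tested, and in bulk RNA fewer cells of a type and less RNA per cell cannot be told apart. The libraries are described as biological replicates, but whether each came from 1 animal or a pool is not given in the sources used here, so p-values measure the spread between these samples.

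In high-STRA8 against Stra8-deficient cells, the comparison of cells past meiotic initiation with cells that lack STRA8, transcripts of all 7 genes rose, by 1.79- to 6.54-fold. The background was 18.8% of the 12523 genes tested called higher and 18.2% called lower (edgeR quasi-likelihood test, Benjamini-Hochberg adjusted p under 0.05). Of the 1466 tested genes with a summit in all 3 FLAG/FLAG and no wild-type library, 59.5% were called higher and 3.68% lower. For all 7 genes, both high-STRA8 libraries lay above all 3 Stra8-deficient ones in TPM, as did 27.9% of all genes tested (39.3% lay below). The median log2 difference was 1.67 over the 7 genes, 0.53 over the 1466 and -0.02 over all genes tested. The size of the rise did not follow the rank of the score. Eaf2, the fifth of the 7 by score, ranked 28 by fold among the 1466, Sgpl1 88, Dip2c 108, Ttc3 111, Pigp 284 and Cux1 423, while Iqsec1, first by score, ranked 446.

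The enzymes of lipid and anchor metabolism were abundant. Sgpl1 measured 119, 103 and 89.8 TPM in the Stra8-deficient, 182 and 132 in the low-STRA8, and 340.2 and 331 in the high-STRA8 libraries. The groups did not overlap, and the low-STRA8 libraries lay in between. In high-STRA8 cells Sgpl1 was 1.78 above the Stra8-deficient cells on the log2 scale (SE 0.137, edgeR adjusted p = 8.38e-05). Pigp measured 212, 175 and 179 TPM in the Stra8-deficient, 324 and 257 in the low-STRA8, and 377 and 393 in the high-STRA8 libraries. Pigp was the most abundant of the 7 genes in every group by TPM, and its low-STRA8 libraries lay between the other groups. Its log2 difference between high-STRA8 and Stra8-deficient cells was 1.05 (SE 0.120, edgeR adjusted p = 0.000429).

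Iqsec1 measured 36.6, 38.8 and 34.3 TPM in the Stra8-deficient, 20.9 and 25.2 in the low-STRA8, and 63.0 and 59.7 in the high-STRA8 libraries. Here the low-STRA8 libraries were the lowest. The rise in high-STRA8 over Stra8-deficient cells was 0.84 on the log2 scale (SE 0.113, edgeR adjusted p = 0.000878), the smallest of the 7 genes despite the highest lowest score. Dip2c measured 22.9, 23.4 and 20.4 TPM in the Stra8-deficient, 26.5 and 24.6 in the low-STRA8, and 68.0 and 66.9 in the high-STRA8 libraries. Its low-STRA8 libraries lay just above the Stra8-deficient ones and far below the high-STRA8 pair. The log2 difference of Dip2c between high-STRA8 and Stra8-deficient cells was 1.70 (SE 0.0915, edgeR adjusted p = 5.31e-05).

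Of the transcription genes, Cux1 measured 65.0, 74.2 and 57.4 TPM in the Stra8-deficient, 36.0 and 38.4 in the low-STRA8, and 113 and 119 in the high-STRA8 libraries. Its order of groups was that of Iqsec1, with the low-STRA8 libraries lowest. The log2 difference between high-STRA8 and Stra8-deficient cells was 0.86 (SE 0.109, edgeR adjusted p = 0.000660). Eaf2 measured 8.87, 9.04 and 10.7 TPM in the Stra8-deficient, 24.6 and 15.2 in the low-STRA8, and 52.2 and 57.7 in the high-STRA8 libraries. It was the least abundant of the 7 genes in the Stra8-deficient group and the one with the largest rise, 2.71 on the log2 scale (SE 0.241, edgeR adjusted p = 0.000143). Its estimated counts were also few, 71 to 91 in the Stra8-deficient libraries. Ttc3, the ubiquitin ligase, measured 84.5, 80.2 and 62.0 TPM in the Stra8-deficient, 55.3 and 55.3 in the low-STRA8, and 209.7 and 243 in the high-STRA8 libraries. Its high-STRA8 libraries lay far above the others, with a log2 difference to the Stra8-deficient group of 1.67 (SE 0.128, edgeR adjusted p = 8.38e-05). All 7 of these calls held in each of 16 alternative analyses, with a highest adjusted p of 0.0126.

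**Figure D3:**
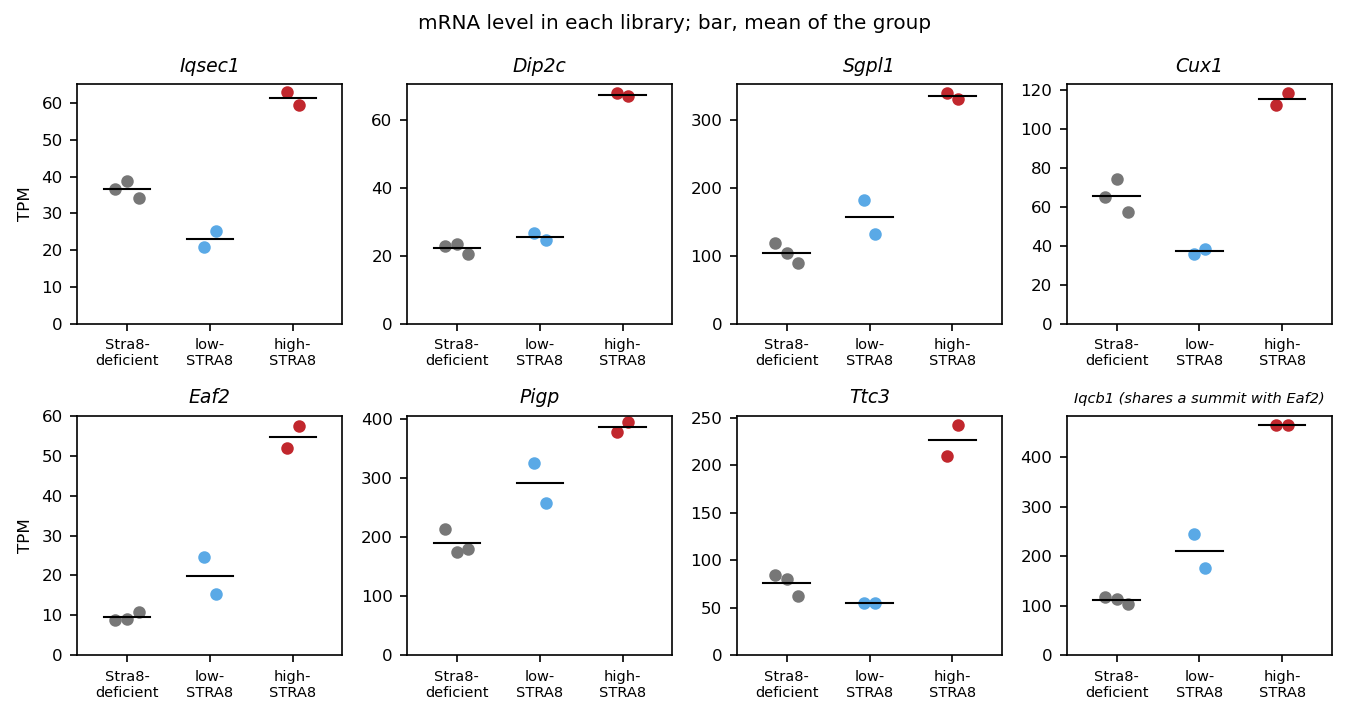
TPM of the 7 genes and of Iqcb1, which shares the Eaf2 summit, in each RNA library, 1 point per library, with the group mean as a bar. The high-STRA8 libraries are highest in every panel, and the low-STRA8 libraries are lowest for Iqsec1, Cux1 and Ttc3.

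Between low-STRA8 and high-STRA8 cells, an earlier and a later point of preleptotene in the same genotype, 6 of the 7 genes rose and Pigp was not called. The background was 21.3% of genes called higher and 18.3% called lower, and of the 1466 genes with summits 54% were higher and 4.64% lower. All 7 genes lay above the low-STRA8 libraries in both high-STRA8 libraries, as did 44.2% of all genes, while 30.3% lay below. The log2 difference was 1.94 for Ttc3 (SE 0.147, edgeR adjusted p = 0.000424) and 1.58 for Cux1 (SE 0.125, adjusted p = 0.000461). It was 1.34 for Eaf2 (SE 0.263, edgeR adjusted p = 0.00553), 1.31 for Iqsec1 (SE 0.128, adjusted p = 0.000612), 1.30 for Dip2c (SE 0.103, adjusted p = 0.000461) and 1.0 for Sgpl1 (SE 0.153, adjusted p = 0.00224). Pigp differed by 0.18 (SE 0.133, edgeR adjusted p = 0.318). Among all genes, 12.1% were higher in high-STRA8 cells than in both other groups, and 6 of the 7 genes were. Eaf2 lost its call without high-STRA8 replicate 2 (edgeR adjusted p = 0.0518), and Pigp gained one in limma on log2(TPM + 1) (0.42, adjusted p = 0.0464).

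The early cells split the 7 genes. In low-STRA8 against Stra8-deficient cells, Eaf2 rose by 1.37 on the log2 scale (SE 0.242, edgeR adjusted p = 0.00679), Pigp by 0.87 (SE 0.121, adjusted p = 0.00294), Sgpl1 by 0.78 (SE 0.137, adjusted p = 0.00671) and Dip2c by 0.40 (SE 0.0924, adjusted p = 0.0183). The background was 10.1% called higher and 13.9% called lower, and for the 1466 genes with summits 24.6% and 13.5%. In the other direction, Cux1 fell by 0.71 (SE 0.114, edgeR adjusted p = 0.00483) and Iqsec1 fell by 0.47 (SE 0.117, adjusted p = 0.0227). Ttc3 had a log2 difference of -0.27 and was not called (SE 0.131, edgeR adjusted p = 0.171), although its TPM in both low-STRA8 libraries lay below all Stra8-deficient ones, as for 39.4% of all genes. The 4 genes that rose did not overlap between the groups either, as for 12.1% of all genes. Iqsec1 lost its call without Stra8-deficient replicate 1 (edgeR adjusted p = 0.0506) or 2 (0.0716), low-STRA8 replicate 1 (0.0947) or high-STRA8 replicate 2 (0.0678). Dip2c lost its call without low-STRA8 replicate 1 (edgeR adjusted p = 0.0626), high-STRA8 replicate 1 (0.0522) or 2 (0.0549), and in limma on log2(TPM + 1) (0.19, adjusted p = 0.202).

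Transcript length moved with both comparisons that involve the low-STRA8 libraries. In low-STRA8 against Stra8-deficient cells the median log2 difference was 0.27 in the shortest of 5 equal classes of genes by effective length and -0.37 in the longest, in high-STRA8 against low-STRA8 cells it was -0.34 and 0.42, and in high-STRA8 against Stra8-deficient cells -0.10 and 0.04. Iqsec1, Dip2c and Ttc3, of 7049, 6974 and 6458 bases, are in the longest class, where 39% of genes were called lower in low-STRA8 than in Stra8-deficient cells. Pigp and Eaf2, of 515 and 666 bases, are in the shortest, where 16.9% were called higher. With an offset that removes the trend with length in each library, Iqsec1 and Ttc3 no longer lay lower in low-STRA8 than in Stra8-deficient cells, with log2 differences of 0.02 (edgeR adjusted p = 0.936) and 0.16 (adjusted p = 0.297). Cux1 remained lower at -0.54 (edgeR adjusted p = 0.0109), and Dip2c moved from 0.40 to 0.88 (adjusted p = 0.00160). With the same offset, Pigp was called higher in high-STRA8 than in low-STRA8 cells by 0.58 (edgeR adjusted p = 0.0181). All 7 genes were then called higher there, beside 2253 of all 12523 genes tested (2210 were called lower). The step of Pigp from Stra8-deficient to low-STRA8 cells went from 0.87 to 0.56 (edgeR adjusted p = 0.0252). Iqsec1 and Dip2c moved to 0.78 each in high-STRA8 against low-STRA8 cells. In high-STRA8 against Stra8-deficient cells the 7 values stayed between 0.80 and 2.79, all called higher, beside 2448 of all genes tested (2432 were called lower). Whether the trend lies in the RNA or in the libraries was not tested. The balance of calls over all genes depended on it in low-STRA8 against Stra8-deficient cells, with 1270 higher and 1736 lower without the offset and 1185 and 1042 with it. In limma on log2(TPM + 1) the same comparison gave 496 higher and 2706 lower, high-STRA8 against low-STRA8 3129 and 1791 (2672 and 2286 in edgeR), and high-STRA8 against Stra8-deficient 2048 and 3008 (2359 and 2284 in edgeR), with the median of all genes at -0.15, 0.11 and -0.08.

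**Figure D4:**
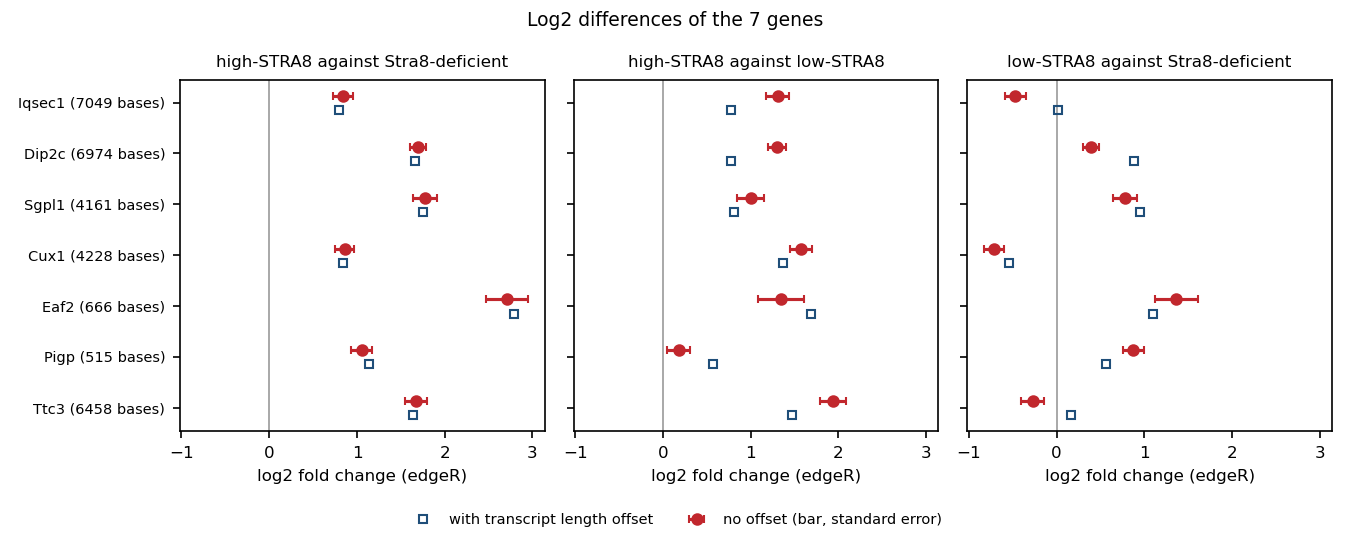
Log2 differences of the 7 genes in the 3 comparisons from the edgeR fit (filled points, with bars of 1 SE) and from the fit with the transcript length offset (open squares), with effective transcript lengths beside the gene names. In high-STRA8 against Stra8-deficient cells the values barely move with the offset, whereas Iqsec1 and Ttc3 cross 0 in low-STRA8 against Stra8-deficient cells.

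Transcripts were also split by whether they start within 1 kb of a summit found in at least 2 FLAG/FLAG libraries. All transcripts of Dip2c, Sgpl1, Pigp and Ttc3 start there, so that nothing is left to compare for these genes. Iqsec1 stood apart. Its summit lies at the start of Iqsec1-210, which measured 3.11, 5.69 and 4.82 TPM in the Stra8-deficient, 2.14 and 3.07 in the low-STRA8, and 6.75 and 8.34 in the high-STRA8 libraries, only 8.49% to 14.7% of the TPM of the gene. Most of the rest came from Iqsec1-201, which starts at 90810123 and measured 30.1, 30.7 and 27.2 TPM in the Stra8-deficient, 18.5 and 21.5 in the low-STRA8, and 53.0 and 48.2 in the high-STRA8 libraries. No summit of any FLAG/FLAG library lay within 1 kb of that start. In high-STRA8 against Stra8-deficient cells, the log2 difference was 0.81 for Iqsec1-210 (SE 0.305, edgeR adjusted p = 0.0744), short of the threshold, and 0.83 for the transcripts that start elsewhere (SE 0.123, adjusted p = 0.00168). Of the 12975 groups of transcripts tested in this way, 17.6% were called higher and 16.4% lower. Against the low-STRA8 cells the transcript at the summit rose by 1.38 (SE 0.347, edgeR adjusted p = 0.0169) and the others by 1.28 (SE 0.139, adjusted p = 0.00125), against backgrounds of 19.4% higher and 17.1% lower. In low-STRA8 against Stra8-deficient cells the other transcripts fell by 0.44 (SE 0.127, edgeR adjusted p = 0.0421) and the value at the summit was -0.58 (SE 0.318, adjusted p = 0.234), against backgrounds of 9.13% higher and 11.7% lower. The transcript length offset was not applied to these groups. With it, the whole gene differed by 0.02 in that comparison.

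**Figure D5:**
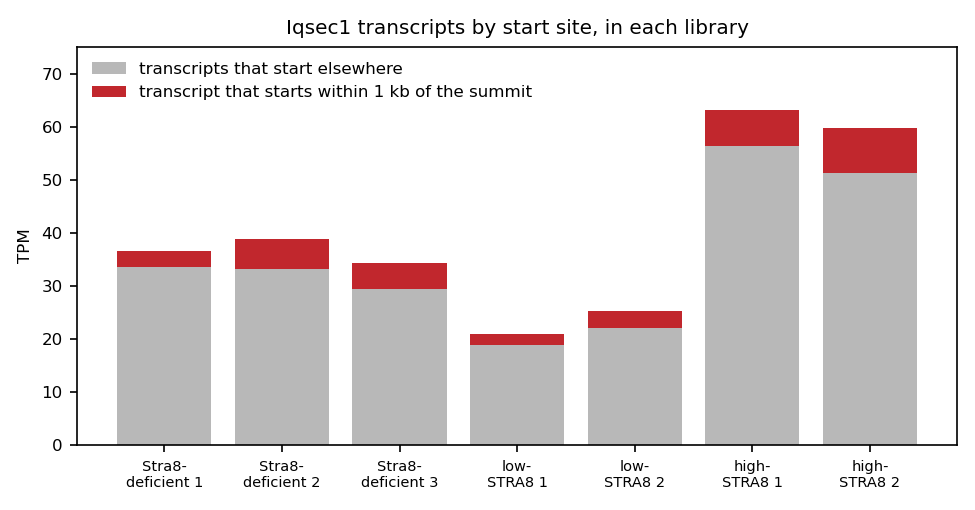
TPM of the Iqsec1 transcript that starts at the STRA8 summit and of the transcripts that start elsewhere, stacked for each RNA library. The transcript at the summit makes up 8.49% to 14.7% of the gene in every group.

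In Cux1 and Eaf2 most of the RNA came from starts at the summit. Cux1 transcripts at the summit made up 94.7% to 98.8% of the gene and rose by 0.88 on the log2 scale in high-STRA8 over Stra8-deficient cells (SE 0.120, edgeR adjusted p = 0.00117). Cux1-206, which starts at 136565432, differed by 0.36 (SE 0.328, edgeR adjusted p = 0.440). Its levels were low, 0.415 and 0.876 TPM in the low-STRA8 libraries and 2.34 to 3.22 in the others. That start lay a little more than 1 kb from weak summits at 136566502 in library 1 and 136566685 in library 3. Both classes rose from low-STRA8 to high-STRA8 cells, those at the summit by 1.54 (SE 0.136, edgeR adjusted p = 0.00095) and Cux1-206 by 2.15 (SE 0.387, edgeR adjusted p = 0.00528). From Stra8-deficient to low-STRA8 cells, transcripts at the summit fell by 0.66 (SE 0.124, edgeR adjusted p = 0.0115) and Cux1-206 fell by 1.79 (SE 0.364, edgeR adjusted p = 0.0141). The difference between the classes was not tested. Eaf2 transcripts at its summits made up 65.7% to 100% and rose by 2.81 (SE 0.277, edgeR adjusted p = 0.000316). Eaf2-203, which starts at 36808705, was at 0 in 3 of the 7 libraries and differed by 1.37 with a large error (SE 1.62, edgeR adjusted p = 0.550). The distal transcript Eaf2-202, with a weaker summit of its own, stayed between 0.195 and 2.95 TPM. Estimates for transcripts that differ in few bases are uncertain: Sgpl1-202 and Sgpl1-201 measured 318 and 22.3 TPM in one high-STRA8 library and 91.2 and 240 in the other, although their sum hardly moved.

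The paired promoters allow each gene to be set beside its neighbour. Iqcb1 measured 118, 113 and 104 TPM in the Stra8-deficient, 246 and 177 in the low-STRA8, and 465 and 465 in the high-STRA8 libraries, 4.43-fold above Stra8-deficient cells in the high-STRA8 ones (log2 2.15, SE 0.120, edgeR adjusted p = 5.31e-05). Eaf2 and Iqcb1 were both called higher in all 3 comparisons. Pigp and Ttc3, over 1 summit, had different orders of groups in TPM. Pigp was highest in high-STRA8 and lowest in Stra8-deficient libraries, and Ttc3 was lowest in low-STRA8 libraries. The low-STRA8 level of Ttc3 was not called different from the Stra8-deficient one (-0.27, edgeR adjusted p = 0.171). With the transcript length offset that difference was 0.16. By effective length, Pigp is in the shortest class and Ttc3 in the longest. Over the 7 libraries, Pearson's r of log2(TPM + 1) was 0.65 for Pigp with Ttc3, a description over points that share their libraries. Among all pairs of the 7 genes r ran from 0.34 for Cux1 with Pigp to 0.99 for Iqsec1 with Cux1. Golgb1, near the distal start of Eaf2, was not called in high-STRA8 against Stra8-deficient cells (0.27, SE 0.236, edgeR adjusted p = 0.411). It rose by 3.09 in high-STRA8 over low-STRA8 cells (SE 0.288, edgeR adjusted p = 0.000587) and fell by 2.83 from Stra8-deficient to low-STRA8 cells (SE 0.274, edgeR adjusted p = 0.0015). Golgb1, of 10755 bases, is in the longest class, whose medians were 0.42 and -0.37 in these comparisons. The part of length in its differences was not tested.

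The families and pathways of the 7 genes held calls in both directions. Besides Iqsec1, 25 genes of ARF exchange factors, ARF GTPases and ARF GTPase-activating proteins were tested. Of these, 8 were called higher and 5 lower in the high-STRA8 against the Stra8-deficient cells, with a median log2 difference of 0.08. Arfgef2, an exchange factor of the Golgi, rose by 1.0 and Asap2, a GTPase-activating protein, by 0.74, while the GTPase Arf3 fell by 0.61. The closest relative of Iqsec1, Iqsec2, fell by 1.68 from a mean of 1.70 TPM, and Arf6 differed by 0.08 (edgeR adjusted p = 0.513). In sphingolipid metabolism, 5 of 33 tested genes besides Sgpl1 were called higher and 9 lower, with a median of -0.07. Those higher included the ceramidase Acer3 (1.80), the sphingomyelinases Smpd3 (1.91) and Smpd4 (0.92) and the ceramide synthase Cers5 (0.88). Neither kinase that makes the substrate of Sgpl1 was called higher, since Sphk1 fell by 1.28 (edgeR adjusted p = 0.0140) from a mean of 2.75 TPM and Sphk2 differed by 0.08 (adjusted p = 0.597). In GPI anchor synthesis, 4 of 26 tested genes besides Pigp were called higher and 4 lower, with a median of -0.07. Pigf rose by 1.17 and Pigu by 0.84, while Pigq, a subunit of the same enzyme as Pigp, fell by 0.44 and Dpm1 fell by 0.37. The backgrounds are those given above for all genes, 18.8% higher and 18.2% lower.

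Besides Eaf2, 20 genes listed around ELL, EAF and the super elongation complex were tested, not all of them its subunits. Of these, 5 were called higher and 4 lower in the same comparison, with a median of 0.10. The scaffold gene Aff4 rose by 1.40, Ice2 by 0.95, Hexim1 by 0.86 and Larp7 by 0.62. Eaf1, the paralog of Eaf2, fell by 0.27 (edgeR adjusted p = 0.0310), against a rise of 2.71 for Eaf2. Of the AKT kinases and regulators, 5 of 20 tested besides Ttc3 were called higher and 4 lower, with a median of -0.11. The deubiquitinase Cyld rose by 2.34 and Pdpk1, an activating kinase of AKT, by 0.64, while Akt1 fell by 0.98 and Prr5 fell by 1.63. Neither other member of the DIP2 family was called higher, as Dip2a fell by 0.86 and Dip2b differed by 0.18 (edgeR adjusted p = 0.262). Both other expressed CUT family genes fell, Cux2 by 1.19 and Satb1 by 0.90. In this comparison Iqsec2, Dip2a, Dip2b, Cux2, Satb1 and Eaf1 had another direction or no call where Iqsec1, Dip2c, Cux1 and Eaf2 rose. Only 18.8% of all genes tested were called higher in it, so most genes would show the same. Ell3, of the ELL factors that Eaf2 partners, was called higher (0.84, edgeR adjusted p = 0.0384). In high-STRA8 against low-STRA8 cells, Dip2b was called higher too (0.51, edgeR adjusted p = 0.0133). Summits without a wild-type counterpart in at least 2 FLAG/FLAG libraries were found at 38 of the 128 tested genes of these lists (29.7%), beside 2781 of all 12523 genes tested (22.2%).

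The genes whose levels ran most alike over the 7 libraries, by Pearson's r of log2(TPM + 1) among 9643 genes whose mean reached 5 TPM, differed between the 7 genes. They were Slc4a1ap (0.994) and Arhgap35 (0.994) for Iqsec1, and Phc1 (0.998) and Setd1a (0.995) for Cux1. For Dip2c they were Zfp398 (0.998) and Ebna1bp2 (0.998), for Sgpl1 Cenpq (0.999) and Rtn3 (0.999), and for Eaf2 Mlf1 (0.998) and Atpaf2 (0.998). Med7 (0.998) and 4930579G24Rik (0.998) ran most like Pigp, and Utp14b (0.998) and Acaca (0.997) most like Ttc3. These are descriptions over 7 points that share their groups and libraries.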

How the data were processed

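The authors quantified transcripts with kallisto 0.43.0, and the deposited tables give estimated counts, effective lengths and TPM for each transcript. They summed protein-coding transcripts to a deposited TPM for each gene and also deposited a normalized signal per gene, in which DESeq2 1.18.1 had scaled the estimated counts by its factors. For ChIP-seq, the authors aligned reads to mm10 with Bowtie 1.2.0 and called peaks in each library against its input with MACS2 2.1.1.20160309, and the deposited score of a summit is -log10 of its p. The 6 input libraries were not used here.

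Of the 12545 genes over 1 TPM in at least 1 library, 12523 were joined to transcripts of GENCODE M21. Their estimated counts were rounded, normalized by TMM and tested with edgeR 4.0.16 in R 4.3.3 (robust quasi-likelihood test, 3 groups in 1 fit, Benjamini-Hochberg adjustment over all genes, threshold 0.05), checked on simulated data. Transcripts were also summed by gene and by whether they start within 1 kb of a summit found in at least 2 FLAG/FLAG libraries. Alternatives were DESeq2 1.42.0, limma 3.58.1 on log2(TPM + 1), log2(TPM + 0.1) and the normalized signal, other size factors and filters, a replicate block, leaving out each library and other windows. The transcript length offset and the crossed block were chosen after seeing the data. Summits, motif matches and sequence were handled in Python 3.11.15 with pysam 0.24.0.

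The 7 genes, the 7 lists and the tests were chosen with earlier results of these data known. Named are the 7 genes, Stra8, genes sharing their summits, the genes ranked around them, up to 4 other genes of each list with the smallest adjusted p in high-STRA8 against Stra8-deficient cells, and the 2 genes most alike to each. Single cell type markers are also named. Arf6, Sphk1, Sphk2, Eaf1, Ell3 and Dip2b, close relatives or partners, were added after their values were seen.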

Additional observations from a re-analysis of the deposited data

How the results depend on the processing

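Of 483 values for single genes under other settings, 462 kept their direction and their side of the threshold, 11 lost a call, 7 gained one and 3 changed sign. The sign changes were Iqsec1 (0.017) and Ttc3 (0.16) in low-STRA8 against Stra8-deficient cells with the transcript length offset, and Eaf2 transcripts away from the summits in high-STRA8 against Stra8-deficient cells without high-STRA8 replicate 1 (-6.04, against 2.36 without replicate 2), transcripts that were at 0 in high-STRA8 replicate 2. The cause was not tested. Counts of called genes ranged, with 1 library left out, from 1980 to 5309 in high-STRA8 against Stra8-deficient cells (4643 with all), from 1638 to 5292 in high-STRA8 against low-STRA8 cells (4958) and from 1700 to 3117 in low-STRA8 against Stra8-deficient cells (3006), and of called transcript groups from 1766 to 5141 (4403). The lowest counts followed the loss of high-STRA8 replicate 2, or in low-STRA8 against Stra8-deficient cells of Stra8-deficient replicate 2. Without high-STRA8 replicate 1 the 4 counts were 2421, 2613, 1942 and 2147 in the same order, and without high-STRA8 replicate 2 low-STRA8 against Stra8-deficient cells gave 1817. Each such fit takes the lone high-STRA8 library to vary like the other groups.

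Libraries of the same replicate number did not deviate together from their group means (correlations from -0.166 to -0.029), so the numbers were not taken as pairs. Between libraries of unlike number the correlations ran from -0.026 to 0.166. In a group of 2 libraries the deviations mirror each other, so these are not separate values. With a replicate block, 2869 transcript groups were called in high-STRA8 against Stra8-deficient cells, Dip2c lost its call in low-STRA8 against Stra8-deficient cells (edgeR adjusted p = 0.0576), and the Iqsec1 transcript at the summit gained one in high-STRA8 against Stra8-deficient cells (0.94, adjusted p = 0.0406). That transcript was also called without low-STRA8 replicate 1 (edgeR adjusted p = 0.0495). With the numbers of the low-STRA8 libraries crossed, high-STRA8 against low-STRA8 cells gave 2731 genes called higher and 2292 called lower. When summits had to be present in all 3 FLAG/FLAG libraries, transcripts counted as away from the summit were called higher in Cux1 (0.80, edgeR adjusted p = 0.0134) and Eaf2 (2.16, adjusted p = 0.0199). The share of main summits with CNCCTCAG was 61.11% in 50 bp and 94.44% in 200 bp. With a limit of 500 bp from a TSS, Sgpl1 was not found in all 3 libraries. For Eaf2-203, listed at 0 in 3 of the 7 libraries, no difference between groups was called, which does not show that there was none. The part of depth in this was not tested.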
